A study of Macaca mulatta with 6 samples.

Results

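The genes described here were the 4 inhibitors of DNA binding (ID1, ID2, ID3 and ID4) and the 3 E protein genes whose products they bind (TCF3, TCF4 and TCF12), in rhesus monkey spermatogonial stem cell (SSC) cultures. They were chosen by name from the table of counts, which lists 17795 genes, and all 7 were listed and passed the filter on low counts that left 11539 genes. The cultures were grown with platelet-derived growth factor (SSC PDGF+) or without it (SSC PDGF-), with 3 libraries in each group. The question was whether PDGF moved these genes, and whether ID4, used in the study as a marker of spermatogonia, varied like spermatogonial genes or like the genes of stromal cells.

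Per the study's methods, the SSC medium held serum, GDNF, EGF and other factors besides PDGF. The make-up of the medium without PDGF is not given in the sources used here. No genotype, transgene or strain is named. The labels give the source as testis and a batch: replicate 1 of both groups was batch 1, and replicates 2 and 3 were batch 2. Neither the age and number of the donor animals nor the length of culture is given for these libraries, and nothing says that replicates 2 and 3 were separate cultures. P-values therefore measure the spread between these libraries, which may be technical.

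ID proteins carry a helix-loop-helix but lack the basic region that contacts DNA. An E protein bound by an ID protein cannot bind E-box sites, either as a homodimer or with a tissue-restricted partner such as TWIST or MYOD. ID1, ID2 and ID3 are well known as direct targets of BMP signaling through SMAD1 and SMAD5, and ID4 is widely used as a marker of SSCs. TCF3 encodes the E2A proteins, TCF4 encodes E2-2 and TCF12 encodes HEB. The gene TCF4 is distinct from TCF7L2, a Wnt effector whose protein is sometimes also called TCF4.

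The stretch of each ID coding sequence that encodes most of the helix-loop-helix is shown because this is where the 4 proteins bind the E proteins. The sequences run 5′ to 3′, were taken from RefSeq transcripts of Mmul_10 (annotation release 103), and have in capitals the 69 of 123 positions at which all 4 genes have the same base.
ID1: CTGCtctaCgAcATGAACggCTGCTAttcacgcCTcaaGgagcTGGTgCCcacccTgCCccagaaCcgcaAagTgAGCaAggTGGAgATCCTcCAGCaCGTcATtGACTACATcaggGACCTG
ID2: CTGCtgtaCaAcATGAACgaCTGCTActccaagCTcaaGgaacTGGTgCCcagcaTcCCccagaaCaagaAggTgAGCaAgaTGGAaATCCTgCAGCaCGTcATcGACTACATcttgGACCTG
ID3: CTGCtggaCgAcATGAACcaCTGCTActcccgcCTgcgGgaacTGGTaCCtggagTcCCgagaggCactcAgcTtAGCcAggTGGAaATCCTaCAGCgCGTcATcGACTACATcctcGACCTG
ID4: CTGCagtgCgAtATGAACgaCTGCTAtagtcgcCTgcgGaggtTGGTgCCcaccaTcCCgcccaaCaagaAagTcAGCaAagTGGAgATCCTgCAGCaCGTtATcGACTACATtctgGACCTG
Identity between pairs in this stretch ran from 69.1% (ID1 with ID3, and ID3 with ID4) to 82.1% (ID1 with ID2). The longest run of bases shared exactly by any pair of the full transcripts was 19, between ID2 and ID3. No member had the same counts in all 6 libraries as any other gene.

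On Mmul_10, the RefSeq annotation places ID1 on chromosome 10 (66852363 to 66853477, plus strand), ID2 on chromosome 13 (100084591 to 100087096, minus strand), ID3 on chromosome 1 (201209416 to 201211335, plus strand) and ID4 on chromosome 4 (150146881 to 150149254, minus strand). TCF3 lies on chromosome 19 (1410565 to 1456999, minus strand), TCF4 on chromosome 18 (24602671 to 24971722, plus strand) and TCF12 on chromosome 7 (33315517 to 33691333, plus strand). The ID genes are short, with 872 to 1432 bases of exon and 1 annotated transcript each. The E protein genes have 6367 (TCF3), 12391 (TCF4) and 8231 (TCF12) bases of exon and 19, 41 and 13 transcripts. The counts were made per gene, so isoforms such as E12 and E47 of TCF3 could not be told apart.

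The 6 libraries held 10593804 to 14102695 counts each, and every SSC PDGF+ library was deeper than every SSC PDGF- library. The 2 batch 1 libraries stood apart from the others. In a chi-square comparison of the counts, divided by its degrees of freedom, replicates 2 and 3 differed by 3.43 (SSC PDGF+) and 3.66 (SSC PDGF-), above the value near 1 of sampling noise, whereas replicate 1 differed from them by 47.2 to 60.2. Each difference between groups is therefore given within each batch as well.

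The label of spermatogonia was checked against markers. Several germ cell markers were at or near 0. NANOS2 and DMRT1 had no count in any library, where a count of 0 allows up to 3 counts. The counts of DDX4, the germ cell RNA helicase, were 9, 2 and 2 with the factor and 18, 38 and 13 in its absence. GFRA1, the GDNF receptor, had 3, 0 and 2 counts against 9, 2 and 7. The summed level of the 7 germ cell defining genes listed was 1.95 to 2.33 CPM (counts scaled to library size by TMM) in SSC PDGF+ and 7.64 to 13.4 CPM in SSC PDGF-. That of 22 stromal markers was 39821 to 50292 CPM and 40424 to 44984 CPM. Other germ line markers were well above 0: 10 spermatid genes summed to 127 to 178 CPM with PDGF and 651 to 989 CPM without it. In the spermatogonial list, the means with and without PDGF were 263 and 185 CPM for UCHL1, 85.4 and 74.6 for ETV5, and 59.3 and 151 for FOXO1. In the names SSC PDGF+ and SSC PDGF-, SSC is therefore only the study's name for the cultures. It is not used below as a cell type shown by these markers. In bulk RNA, fewer cells of a type and less RNA per cell cannot be told apart.

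ID2 was the member with the clearest difference between groups, and it was lower with PDGF. Its level was 249, 210 and 207 CPM in SSC PDGF+ replicates 1 to 3, and 445, 360 and 373 CPM in SSC PDGF-. Every SSC PDGF+ library lay below every SSC PDGF- library. The means were 222 ± 23.3 and 393 ± 46.0 CPM (SD, n = 3). On the log2 scale PDGF+ differed from PDGF- by -0.82 (SE 0.14, 95% interval -1.15 to -0.49, edgeR quasi-likelihood test, adjusted p = 0.00642), with -0.84 within batch 1 and -0.81 within batch 2. Of the 7 members, ID2 alone passed the test, in a comparison where 18.3% of all genes passed it, 10.7% as lower and 7.61% as higher with PDGF. An offset for transcript length alone, chosen after seeing the data, left ID2 at -0.55 and outside the threshold (edgeR adjusted p = 0.0740), while offsets for length and GC content together left it at -0.70 (adjusted p = 1.18e-05).

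The level of ID4 was lower with PDGF by a smaller amount, which did not pass the test without a block. It stood at 127, 135 and 130 CPM in SSC PDGF+ and at 148, 166 and 177 CPM in SSC PDGF-. The groups did not overlap, and the SSC PDGF+ libraries lay within a narrow range. The means were 131 ± 4.22 and 163 ± 14.4 CPM (SD, n = 3). Their log2 fold change was -0.32 (SE 0.13, 95% interval -0.62 to -0.03, edgeR adjusted p = 0.122). Blocking on the replicate number gave the same size and passed (-0.32, edgeR adjusted p = 4.95e-05). Within batches ID4 differed by -0.22 (batch 1) and -0.37 (batch 2). Non-overlapping groups with PDGF lower, as in ID2 and ID4, were found in 19.3% of all genes tested. The raw counts of ID4 ran from 1725 to 1885 with PDGF and from 1729 to 1803 without it, so that the lower CPM went together with the larger totals of the SSC PDGF+ libraries.

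ID1 and ID3, the most abundant members, differed without offsets in the direction of ID4 and by a like amount. ID1 was at 503, 750 and 741 CPM in SSC PDGF+ and at 597, 905 and 960 CPM in SSC PDGF-. ID3 was at 604, 772 and 771 CPM against 763, 984 and 1021 CPM. In both genes the batch 1 libraries were the lowest of their group, and the groups overlapped because the batch 1 SSC PDGF- library fell below the batch 2 SSC PDGF+ libraries. The log2 fold change of ID1 was -0.30 (SE 0.22, 95% interval -0.82 to 0.21, edgeR adjusted p = 0.376) and that of ID3 was -0.37 (SE 0.16, 95% interval -0.74 to 0.002, edgeR adjusted p = 0.152). Under the block, both passed (edgeR adjusted p = 1.36e-06 for ID1 and 3.26e-08 for ID3). In batches 1 and 2, ID1 differed by -0.25 and -0.32, and ID3 by -0.34 and -0.38. Both values rested in part on the batch 1 libraries: without the SSC PDGF- one, ID1 was -0.50 (edgeR adjusted p = 0.0690) and ID3 passed at -0.50 (adjusted p = 0.0344), and without the SSC PDGF+ one they were -0.13 (adjusted p = 0.706) and -0.25 (adjusted p = 0.314). ID1 was -0.17 without SSC PDGF- replicate 3. With offsets for GC content and length, described below, ID1 turned to 0.27 and passed as higher (edgeR adjusted p = 0.00389), while ID3 was 0.02 and ID4 0.002.

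**Figure D1:**
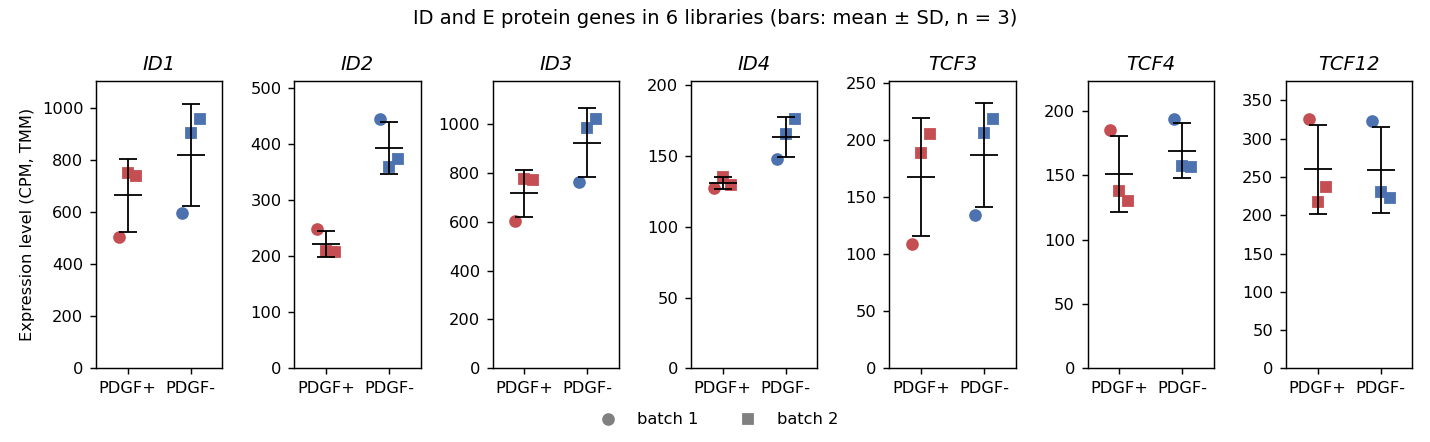
Expression level in TMM-normalized CPM (vertical axes, each from 0) of the 7 genes in SSC PDGF+ and SSC PDGF- libraries; circles are batch 1, squares batch 2, and bars the mean ± SD of 3 libraries. ID2 (207 to 249 against 360 to 445 CPM) and ID4 (127 to 135 against 148 to 177 CPM) are the genes whose groups do not overlap.

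The E protein genes did not pass the test without a block, although TCF4 did with GC content and length offsets (-0.45, edgeR adjusted p = 0.000705), as did TCF12 with these and the block (-0.14, adjusted p = 0.0135). TCF3 was at 109, 189 and 206 CPM with PDGF and at 135, 207 and 219 CPM without it. TCF4 was at 185, 138 and 130 CPM against 194, 157 and 156 CPM. The groups overlapped in both, with TCF3 lowest and TCF4 highest in batch 1. Their log2 fold changes were -0.16 (SE 0.27, 95% interval -0.78 to 0.47, edgeR adjusted p = 0.724) for TCF3 and -0.17 (SE 0.18, 95% interval -0.57 to 0.24, edgeR adjusted p = 0.553) for TCF4. Under the block these were -0.17 and -0.17, with edgeR adjusted p = 0.00853 and 0.00908. The difference in TCF3 was -0.31 in batch 1 and -0.11 in batch 2, and that in TCF4 was -0.07 and -0.23.

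TCF12 was the member closest to no difference. It stood at 326, 217 and 237 CPM in SSC PDGF+ and at 323, 231 and 222 CPM in SSC PDGF-, with batch 1 high in both groups. The log2 fold change was 0.01 (SE 0.21, 95% interval -0.47 to 0.49, edgeR adjusted p = 0.987), and the block narrowed the interval to -0.10 to 0.10 (edgeR adjusted p = 0.937). A change of the size seen in ID2 lies outside both intervals.

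Counted over the set, 6 of the 7 genes passed the test under the block, all lower with PDGF, where 60.1% of all genes passed it and 29.0% passed it as lower. The same 6 genes, all except TCF12, were lower with PDGF in each of the 3 replicate numbers, as were 35.9% of all genes tested. The median log2 fold change of all genes tested was 0.02. A test of whether the PDGF difference itself differed between batches called none of the 11539 genes (edgeR, 526 genes or 4.56% at an unadjusted p under 0.05), and among the 7 its smallest unadjusted p was that of TCF3 (0.0927, adjusted p = 0.968). Batch 1 holds 1 library of each group, which leaves this test 2 residual degrees of freedom, so it does not show that the batches were alike.

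Levels between genes were compared as CPM per kilobase of exon. In SSC PDGF+ and SSC PDGF- the means were 762 and 941 for ID1, 554 and 715 for ID3, 158 and 281 for ID2, and 91.3 and 114 for ID4. ID1 stood above ID3 in each of the 6 libraries in this unit, although their ranges over libraries overlapped. ID3 stayed above ID2, and ID2 above ID4, with no overlap of ranges. The E protein genes were lower, at 31.6 and 31.4 for TCF12, 26.3 and 29.3 for TCF3, and 12.2 and 13.7 for TCF4. TCF12 and TCF3 did not differ beyond their spread: TCF12 was the higher in both batch 1 libraries and TCF3 in all 4 batch 2 libraries. The exon length counts every annotated transcript, so the per-kilobase level of a gene with many transcripts, such as TCF4, is understated where only short ones are made.

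The make-up of the ID transcripts by this unit was 40.3% to 50.5% ID1, 34.7% to 35.7% ID3, 8.77% to 18.7% ID2 and 5.32% to 6.78% ID4 over the 6 libraries. The share of ID2 was 13.5%, 8.81% and 8.77% with PDGF and 18.7%, 11.8% and 11.7% without it, lower with PDGF within each replicate number. The shares of ID3 and ID4 stayed within narrow ranges in both groups. The 4 ID genes summed to 18.3, 25.4 and 23.6 times the 3 E protein genes with PDGF and to 22.3, 29.7 and 30.8 times without it. This ratio is of transcripts and says nothing of the proteins.

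Ratios within a library, which do not depend on a scaling factor of the library, were used to ask which ID gene ID4 moved with. The log2 ratio of ID4 to ID1 counts was -1.98, -2.47 and -2.51 with PDGF, against -2.01, -2.45 and -2.44. The ratio of ID4 to ID3 was -2.25, -2.51 and -2.57 against -2.37, -2.57 and -2.53. Neither ratio separated the groups: the differences were -0.02 for ID1 and 0.05 for ID3 (two-sided exact permutation tests, p = 0.8 and 0.7, Benjamini-Hochberg adjusted p = 0.8 for both). The ratio of ID4 to ID2 was -0.97, -0.63 and -0.67 against -1.59, -1.12 and -1.08. Here all SSC PDGF+ libraries lay above all SSC PDGF- libraries, by 0.50 on average (exact permutation p = 0.1, adjusted p = 0.3), by 0.62 in batch 1 and by 0.45 in batch 2. With 3 libraries against 3 the smallest p that the test allows is 0.1, so none of the 3 comparisons could pass. The ratios do depend on corrections that differ between genes: with GC content and length offsets, the log2 fold change of ID4 minus that of ID1 was -0.27, minus that of ID2 was 0.70 and minus that of ID3 was -0.022.

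**Figure D2:**
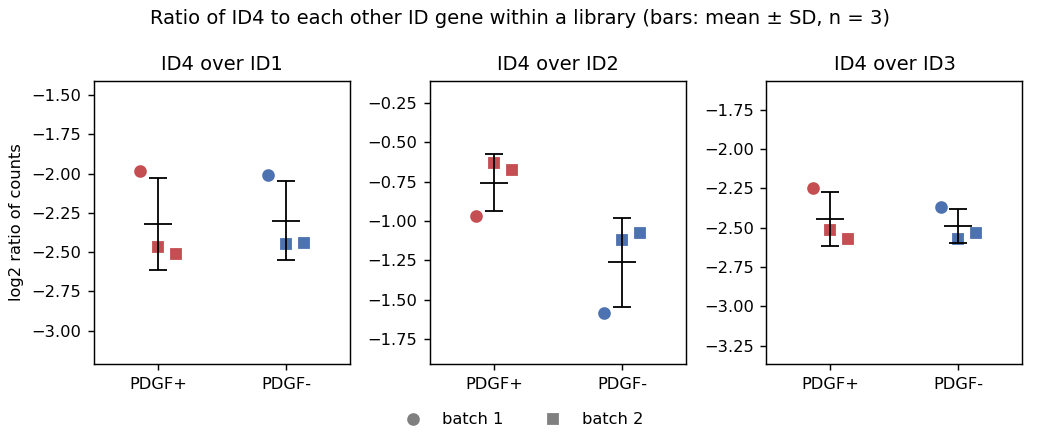
Log2 ratio of ID4 counts to the counts of ID1, ID2 and ID3 within each library (vertical axes of equal span); circles are batch 1, squares batch 2, and bars the mean ± SD of 3 libraries. The ratio to ID2 is higher with PDGF in every library (-0.97 to -0.63 against -1.59 to -1.08), while the ratios to ID1 and ID3 overlap.

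The tested genes of the spermatogonial list ran in log2 fold change from -3.56 (TSPAN33) to 0.51 (UCHL1). This range holds ID4 (-0.32) and also the median of all genes tested (0.02), so lying within it does not set ID4 apart. Of the 27 genes of the undifferentiated spermatogonia list, 21 were listed and 9 had enough counts to test, of which 5 passed as lower with PDGF and 1 as higher, with a median log2 fold change of -1.35. The genes that passed as lower were FGFR3 (-2.07), TSPAN33 (-3.56), DDX4 (-2.72), TCN2 (-1.18) and FOXO1 (-1.35), and the one that passed as higher was UCHL1 (0.51), a ubiquitin hydrolase that many other cells also make. Several passed the filter mainly through SSC PDGF-, the group in which they were high, so this median describes only the genes that could be tested. ETV5 (0.20), L1TD1 (0.13) and DAZL (-2.32) did not pass (edgeR adjusted p = 0.380, 0.852 and 0.0688). With at least 10 counts in every library the median was -0.56 over 6 genes, which lies inside the 95% interval of the ID4 difference (-0.62 to -0.03). The list median was not computed with GC content and length offsets, under which ID4 was 0.002.

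Within libraries, the ratio of ID4 to each of the 6 genes that passed did not overlap between the groups. On the log2 scale the difference in this ratio, PDGF+ minus PDGF-, was 2.45 for DDX4, 1.70 for FGFR3, 1.03 for FOXO1 and -0.83 for UCHL1. The ratio of ID4 to ETV5 (-0.51) and that to the stromal gene VIM (-0.12), neither of which passed, did not overlap either. Lack of overlap is thus not particular to the spermatogonial genes that passed. The 6 genes were chosen because they passed the test, so these ratios are a description. ID4 also far exceeded the defining genes in level: DDX4 averaged 0.342 CPM per kilobase over the 6 libraries, against 91.3 and 114 for ID4 in the 2 groups.

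Whether the profile of ID4 over the libraries lay nearer to spermatogonial or to stromal genes depended on which spermatogonial genes were counted. A profile is the log2 CPM of a gene in each library after its own mean is removed, and 2 profiles were compared by the root mean square of their differences. This distance from ID4 was 0.231 to the median profile of 22 stromal genes and 0.419 to that of the 9 spermatogonial genes. When genes were centred within batch it was 0.246 and 0.507. The 9 genes include DDX4, DAZL and TSPAN33, which had few counts and passed the filter through SSC PDGF-. With the 6 genes that had at least 10 counts in every library, a limit chosen after seeing the data, the order turned: 0.152 to the spermatogonial median and 0.231 to the stromal one. These 6 were FGFR3, ETV5, L1TD1, UCHL1, TCN2 and FOXO1, without the germ cell markers DDX4 and DAZL. Whether their transcripts came from spermatogonia in these cultures was not tested, so 0.152 is not a likeness to spermatogonia as such. ID4 itself varied by only 0.178 around its mean, and the stromal median by 0.136, since 6 of its 22 genes passed as higher with PDGF and 4 as lower. COL6A1 (1.58), NT5E (1.41) and COL6A3 (1.08) were among the former, and POSTN (-1.77), MMP2 (-1.12) and COL3A1 (-1.07) among the latter. A profile with no variation at all would thus lie 0.178 from ID4, nearer than the stromal median.

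Among single genes of the lists, the nearest stromal gene to ID4 was VIM, the intermediate filament of mesenchymal cells, at a distance of 0.0779, which ranked 70 of 10305 genes. The nearest spermatogonial gene was ETV5, a GDNF-responsive transcription factor, at 0.308, which ranked 3592. The stromal list was the longer, with 22 genes against 9, and so had more chances to hold a near gene. The median distance from ID4 to single genes was 0.402 in the stromal list and 0.571 in the spermatogonial one. VIM differed by -0.20 (edgeR adjusted p = 0.214) and ETV5 by 0.20 (edgeR adjusted p = 0.380), against -0.32 for ID4. ID3 lay at 0.121 (3.05% of genes were nearer), ID1 at 0.223 (16.9%) and ID2 at 0.318 (37.3%). The 5 nearest genes of all were CHMP4B (0.0288), UBTF, FBXO7, COMMD9 and DDX39B (0.0412), which are used by most cell types. ID2 lay at 0.231 from the median of the 9 spermatogonial genes, at 0.190 from that of the 6 with at least 10 counts, and at 0.530 from the stromal one; any gene that is lower with PDGF lies nearer to a list median that is lower with PDGF.

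**Figure D3:**
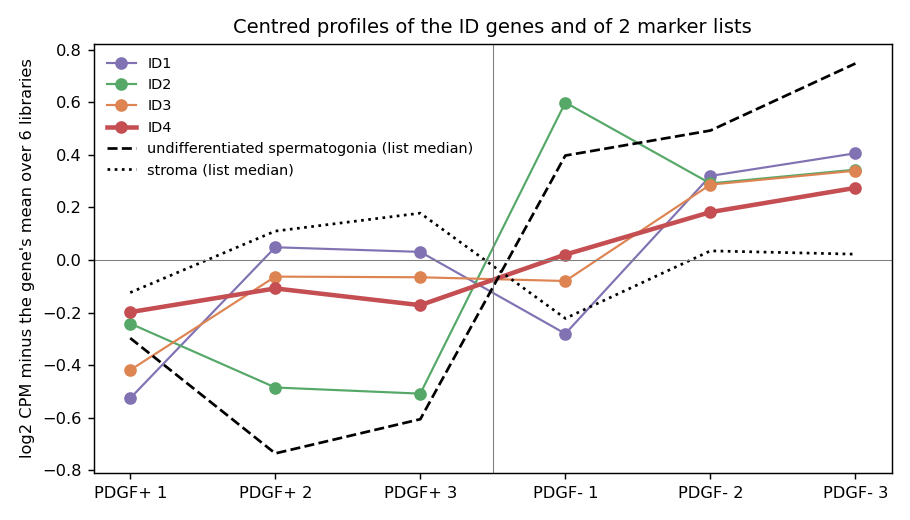
Profiles over the 6 libraries (horizontal axis) of ID1 to ID4 and of the median of 9 spermatogonial (dashed) and 22 stromal genes (dotted), as log2 CPM minus the mean of each gene. The dashed line, which includes genes of few counts, falls from between 0.40 and 0.75 in SSC PDGF- to between -0.74 and -0.30 in SSC PDGF+, while ID4 stays between -0.20 and 0.27.

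The other members each had neighbours of their own. The 3 genes nearest to ID1 were HMG20B (0.0179), SLC22A17 and NAPA, and those nearest to ID3 were ERGIC3 (0.0288), PPOX and VPS16. ID1 and ID3 lay 0.115 apart, and ID1 and TCF3 lay 0.120 apart. TCF3 had POLR2E (0.0323), CSK and SLC4A2 as its nearest genes. TCF4 and TCF12 lay 0.130 apart, with POLR2B (0.0229), GNG12 and RND3 nearest to TCF4 and EXTL2 (0.0306), RBM7 and MED21 nearest to TCF12. Among the genes nearest to ID2 were HSDL1 (0.0423) and PLPP1, both of which were lower with PDGF (-0.77 and -0.80, edgeR adjusted p = 0.0177 and 0.0153).

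The batch moved with base composition, and so did the grouping of the members by profile. Across 11237 genes, the difference between batch 2 and batch 1 rose with the GC content of the longest transcript (Spearman rho 0.81, across genes of the same 6 libraries, which are not independent). TCF3 (60.5% GC), ID1 (59.1%), ID3 (57.2%) and ID4 (55.8%) were higher in batch 2 in both groups. TCF12 (46.1%), ID2 (45.2%) and TCF4 (40.0%) were lower in batch 2 in both groups. The part of base composition in the likeness of these profiles was not tested.

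**Figure D4:**
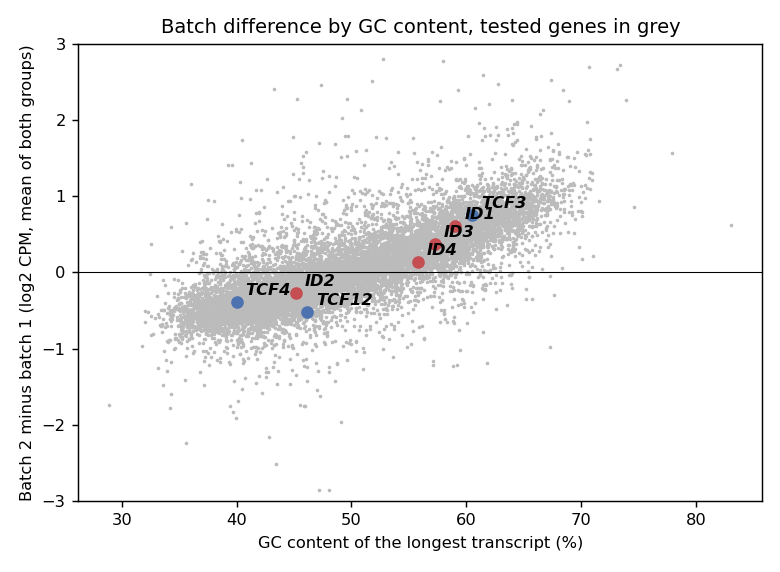
Difference between batch 2 and batch 1 in log2 CPM, averaged over both groups (vertical axis, shown from -3 to 3), against the GC content of the longest transcript in percent, for the tested genes (grey), the ID genes (red) and the E protein genes (blue). Genes above 55% GC, ID4 at 55.8% included, lie mostly above 0, and ID2, TCF4 and TCF12 lie below it.

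The PDGF difference also moved with GC content and length, less strongly. Across the same genes the log2 fold change had a Spearman rho of -0.29 with GC content and 0.20 with length. Genes under 1500 bases, the class that holds all 4 ID genes, had a median log2 fold change of -0.23 (1300 genes), and those that also had over 50% GC, as ID1, ID3 and ID4 do, had a median of -0.36 (759 genes). Genes of 1500 bases or more had a median of 0.05 (9937 genes). These class limits were set after the data were seen. The values of ID1 (-0.30), ID3 (-0.37) and ID4 (-0.32) lay near the median of this class, and that of ID2 (-0.82) lay below the median of its own.

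With offsets for GC content and length, the difference in ID4 was 0.002 (95% interval -0.19 to 0.20, edgeR adjusted p = 0.987), that in ID3 was 0.02 (-0.10 to 0.15, adjusted p = 0.763) and that in TCF3 was 0.01 (-0.17 to 0.19, adjusted p = 0.920). ID1 turned to higher with PDGF, at 0.27 (edgeR adjusted p = 0.00389). ID2 stayed lower, as given above, and TCF4 passed as lower at -0.45 (edgeR adjusted p = 0.000705). TCF12 was at -0.14 (edgeR adjusted p = 0.427). So 3 of the 7 genes passed under these offsets, where 43.7% of all genes did. They also moved the balance of all calls, from 878 higher and 1230 lower to 2776 higher and 2137 lower. The sign for ID1 therefore depended on whether offsets for GC content and length were used, and that for ID2 and TCF4 did not. The offsets were fitted to each library without regard to group. They would also take out a PDGF difference that itself goes with GC content or length. The values with offsets are therefore not free of error either. ID3, ID4 and TCF3 moved to near 0 with the offsets, and ID4 was -0.002 with the block added. For TCF12 the 95% interval held 0 without a block, both with the offsets and without them.

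**Figure D5:**
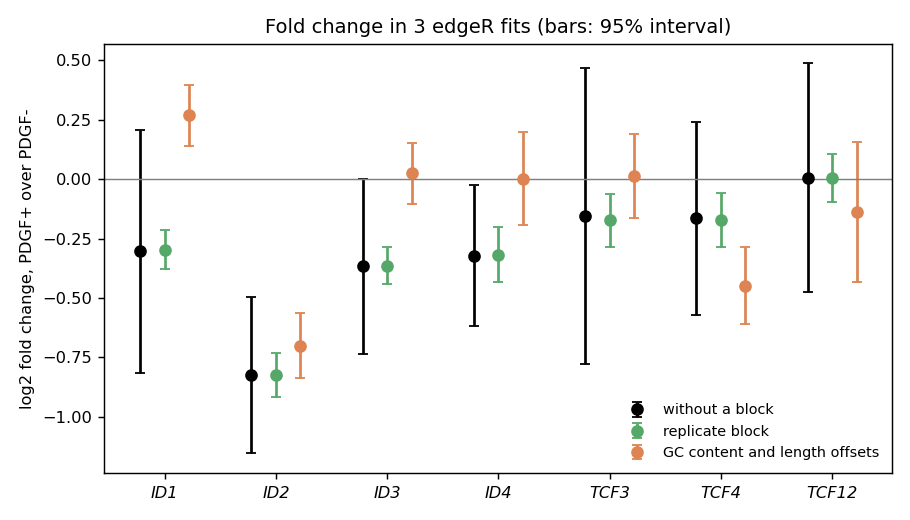
Log2 fold change of SSC PDGF+ over SSC PDGF- for the 7 genes (vertical axis; points) with 95% intervals (bars) in edgeR without a block (black), with the replicate block (green) and with GC content and length offsets (orange). ID2 lies below 0 in all 3 fits (-0.82, -0.82 and -0.70), and ID4 moves from -0.32 to 0.002 with the offsets.

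Of 23 genes tested in the BMP pathway, which can drive ID transcription, 3 passed as higher and 2 as lower with PDGF. The median log2 fold change of the 23 was 0.14. Over all genes tested, 7.61% passed as higher and 10.7% as lower, shares to set beside this and the later lists. The 2 lower genes were the feedback genes SMAD6 and NOG. The counts of SMAD6, an inhibitory SMAD that BMP signals induce, were 714, 1151 and 1323 in SSC PDGF+ against 2116, 3877 and 3846 (log2 fold change -1.96, SE 0.36, edgeR adjusted p = 0.00826). NOG, the secreted BMP antagonist noggin, had 10, 21 and 21 counts against 159, 226 and 231 (-3.88, SE 0.38, edgeR adjusted p = 0.000483). In both genes every SSC PDGF+ library lay below every SSC PDGF- library.

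The genes that passed as higher were the ligand BMP4 (0.78), the type I receptor ACVR1 (0.71) and SMURF2 (0.78), a ubiquitin ligase for SMADs and receptors. The receptors BMPR1A (0.03, edgeR adjusted p = 0.920) and BMPR2 (0.05, adjusted p = 0.869) and the signal carriers SMAD1 (-0.29, adjusted p = 0.274) and SMAD5 (0.39, adjusted p = 0.240) did not pass. The log2 ratio of ID4 to SMAD6 within libraries was higher with PDGF by 1.62, and that of ID4 to NOG by 3.58, in both cases with no overlap of groups. SMAD6 and NOG were named because they passed the test, so these ratios are a description. SMAD7 and BAMBI were not analysed here.

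Of the 15 genes of the TGF-beta arm, 5 passed as higher and 2 as lower, with a median of 0.32. Among those higher were the receptors TGFBR1 (1.41, edgeR adjusted p = 0.00432) and TGFBR3 (1.28, adjusted p = 0.00746). The secreted protein TGFBI (-1.19) and the ligand TGFB3 (-0.59) were lower.

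Of 41 tissue-restricted partners of the E proteins looked for, 26 were listed, and nothing is known here of the level of the others. Of the 26, 8 had enough counts to test and 9 had no count in any library, among them MYOD1 and NEUROD1. TWIST2, a mesenchymal partner, was the one that passed as higher, with 2147, 2521 and 2559 counts against 870, 927 and 872 (1.12, SE 0.17, edgeR adjusted p = 0.00363). ATOH8, which is also known as a BMP target, had 1676, 2750 and 2921 counts against 4126, 6045 and 6224 (-1.48, SE 0.31, edgeR adjusted p = 0.0131). BHLHE22 had 6, 2 and 4 counts against 19, 28 and 20 (-2.78, edgeR adjusted p = 0.00661). BHLHE22 passed the filter only through SSC PDGF-, the group in which it was high. TWIST1 and TCF21 were not analysed here.

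Of 19 tested basic helix-loop-helix factors outside the E protein class, 4 passed as higher and 3 as lower, with a median of -0.06. HEY1, a repressor induced by Notch and BMP signals, was at 99, 76 and 108 counts against 689, 605 and 479 (-2.96, SE 0.19, edgeR adjusted p = 0.000104). MITF (-1.03) and USF1 (-0.66) were the others that passed as lower, and MXI1 (0.83), NPAS2 (0.79), MLX (0.61) and MYC (0.51) passed as higher. 

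Of 10 tested regulators of E and ID proteins, LMO2, an adaptor that bridges E protein complexes, was higher (0.90, edgeR adjusted p = 0.0118), as was EP300, a coactivator of E proteins (0.57, adjusted p = 0.0342), and none passed as lower. Of 5 tested genes known as E protein targets, CDKN1C, a cell cycle inhibitor, had 8, 9 and 14 counts against 133, 251 and 245 (-4.67, edgeR adjusted p = 0.000377), and CDH1, encoding E-cadherin, had 4, 0 and 6 against 21, 20 and 18 (-2.84, adjusted p = 0.0224). GFI1 (1.01), CXCR4 (0.47) and SNAI2 (0.12) did not pass (edgeR adjusted p = 0.0996, 0.447 and 0.608), and the list median was 0.12. CDKN1C and CDH1 passed the filter through SSC PDGF-, the group in which they were high. With at least 10 counts in every library 1 gene of the list was left, SNAI2. CDKN1A and HES1 were not analysed here. Of the 4 TCF/LEF genes of Wnt signaling, TCF7 was higher (0.92, edgeR adjusted p = 0.00494) and TCF7L2 was lower (-0.66, adjusted p = 0.0478), whereas the E protein gene TCF4 stayed at -0.17.

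Markers of other cells moved with the groups as well, and their part in the differences above was not tested. All 8 tested spermatid genes were lower with PDGF (median -2.90), their summed level being 127 to 178 CPM against 651 to 989 CPM, with TNP1, a transition protein, at -3.30 and TNP2 at -3.17. The epithelial list had 6 of 7 tested genes lower (median -2.84, and -1.16 over the 3 genes with at least 10 counts in every library), with a summed level of 36.3 to 52.5 CPM against 180 to 248 CPM. KRT7 had 11, 6 and 13 counts against 1049, 1245 and 1198 (-7.18), ELF3 had no count with PDGF and 49, 40 and 54 without it, and SFN had 0, 1 and 0 counts against 31, 36 and 62. KRT7, ELF3 and SFN passed the filter through SSC PDGF-, the group in which they were high. Among 7 peritubular myoid genes, DES (-3.27) and ACTA2 (-1.19) were lower, MYH11 was at -0.20 (edgeR adjusted p = 0.601), and the sum was 1209 to 1370 CPM against 1467 to 1790 CPM.

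Of the smaller marker lists, 3 differentiating spermatogonia genes could be tested, with CCND2 (1.38) higher and REC8 (-1.16) lower, and STRA8 had no count. Of 5 Sertoli genes tested, CLU (0.78) was higher, while FATE1 had no count with PDGF and 14, 17 and 2 without it. Of 4 Leydig genes tested, IGF1 (-1.55) was lower, and STAR (0.34), DLK1 (1.09) and CYP17A1 (0.27) did not pass (edgeR adjusted p = 0.136, 0.151 and 0.723), with a median of 0.31. No endothelial gene of 5 and no immune gene of 2 passed, with VWF at -0.54 (edgeR adjusted p = 0.384), CD14 at -0.46 (adjusted p = 0.530) and CD68 at 0.28 (adjusted p = 0.372). ERBB4 had 2, 0 and 2 counts against 1, 0 and 0, and NANOS3, KIT, AMH, SOX9 and CD3D were not analysed here. The counts of CCND2, VWF, STAR, PDGFRA and LTBP2 were each the same in all libraries as those of another gene (for STAR, LSM1). They could not be assigned to either gene, which also holds for the part of STAR in the Leydig median.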

How the data were processed

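The samples were bulk RNA sequencing libraries from rhesus monkey, 3 SSC PDGF+ and 3 SSC PDGF-, grouped by their labels. The 7 genes and all gene lists were chosen with earlier results of these data known. The authors deposited expected counts per gene, without normalization; 34 values of 13 genes were not whole and all values were rounded, although the test had been planned for whole counts. The submitters' processing notes name fastp, HISAT2 2.1.0, SAMtools and featureCounts 2.0.1 and the builds Mmul_10 and Mmul_8.0.1, without the role of each; whether counting used strand is not given in the sources used here. Of 17795 genes, 3004 had no count.

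Genes were filtered with filterByExpr by group, normalized with TMM and tested with the quasi-likelihood test of edgeR 4.0.16 in R 4.3.3 without a block, with Benjamini-Hochberg adjusted p under 0.05 over all genes tested. A gene passed the test if it met this threshold. CPM are counts scaled to library size after TMM, and log2 values had 0.5 counts added. Standard errors were taken from the size of the log2 fold change over the root of its F statistic. The method was tested on simulated data with known changes, drawn without a batch or a GC content effect. That test therefore does not cover how the fits handle either. Ratios were compared by two-sided exact permutation tests.

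Same-numbered libraries shared a batch by their labels, and their deviations from the group means correlated at 0.67, 0.29 and 0.31 for replicates 1 to 3. Within batch 2 the numbers 2 and 3 were not distinguishable, since crossed pairs correlated at 0.30 and 0.32. GC content and length came from RefSeq annotation release 103 of Mmul_10 for 17013 genes, matched by symbol, and offsets were a smooth fit of each library on both. Alternatives were other normalizations and count filters, DESeq2 1.42.0, limma-voom (limma 3.58.1), the replicate block, batch as a factor, batch 2 alone, replicates 2 and 3 summed, GC content and length offsets, and leaving out each library; a count minimum for the profiles was added after seeing the data. The genes named were the 7 members, the 5 genes nearest in profile to ID4 and the 3 nearest to each other member (average log2 CPM of at least 1, no LOC identifiers), up to 3 called genes in each direction of each list with the largest change, and the cell markers the study names. SMAD1, SMAD5, BMPR1A, BMPR2, MYC, TCN2, FOXO1, L1TD1, DAZL, STAR, DLK1, CYP17A1, GFI1, CXCR4, SNAI2, VIM and ETV5 were added for their role, as nearest genes, or to name all tested genes of a list, and some genes that the rule names are not reported here. Depth was 10593804 to 14102695 counts per library, and a count of 0 was taken to allow 3 counts, which covers counting error only.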

Additional observations from a re-analysis of the deposited data

How the results depend on the processing

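ID2 passed the test in 20 of 21 alternatives (log2 fold change -0.90 to -0.55), the exception being the length offset given above. The number of the 7 genes that passed was 6 with the replicate block, 6 with batch as a factor, 5 in batch 2 alone, 6 with replicates 2 and 3 summed, 3 with GC content and length offsets, 4 with these and the block, 2 with GC content alone and 1 to 2 when a library was left out. With length alone it was 0 in edgeR (1 at an unadjusted p under 0.05, ID2); without offsets it was 1, in DESeq2 and limma-voom also. ID4 passed with the block (-0.32, edgeR adjusted p = 4.95e-05) and with batch as a factor (-0.32). It also passed in batch 2 alone (-0.39) and with replicates 2 and 3 summed (-0.28). These fits reuse the same libraries and leave few residual degrees of freedom, so they are not separate support. ID4 was 0.0021 with the offsets, and -0.40 to -0.26 when a library was left out. All genes called numbered 2108, and 6934 with the block, 6991 with batch, 6126 in batch 2, 7089 with summed replicates, 4913 with both offsets, 6451 with these and the block, 4890 with GC content alone and 1168 to 3010 without a library. Leaving out SSC PDGF- replicate 1 gave the highest, and leaving out any 1 of the 4 batch 2 libraries gave 1168 to 1206. The ratio of ID4 to ID1 was 0.027 in batch 1 alone and -0.19 to 0.12 without a library, that to ID3 -0.052 to 0.11 and that to ID2 0.34 to 0.61. No call was possible for these ratios, with or without the block (smallest p 0.1 and 0.25).

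Reversed values were as follows. ID1 was 0.27 with both offsets, 0.27 with these and the block and 0.13 with length alone. ID3 was 0.0240 with the offsets and 0.0236 with these and the block. TCF3 was 0.0116 and 0.0101 in these fits, 0.11 with GC content alone, and -0.36 to 0.088 without a library. TCF12 was -0.056 with upper quartile scaling, -0.025 with at least 10 counts in every library, -0.016 in batch 2, -0.14 with both offsets, -0.14 with these and the block (adjusted p = 0.0135, edgeR), -0.032 with GC content, -0.12 with length, and -0.18 to 0.19 without a library. With at least 10 counts in every library the median was 0.077 for differentiating spermatogonia and 0.25 for immune genes, over fewer genes, and the distance of ID4 to the spermatogonial minus that to the stromal median turned from 0.188 to -0.079. The cause of these shifts was not tested. The offsets on GC content alone or length alone were chosen after seeing the data. With 3 libraries a group and 2 batches, a change in TCF12 of under 0.10 was not detectable even with the block, and germ cell genes of a few counts per library give no precise fold.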
